A study of Mus musculus with 4 samples.

Results

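Lhx2, Lhx9 and Lmx1b encode LIM-homeodomain transcription factors, and the data describe binding of the T-box factor TBX5 in the chromatin around these 3 genes in the mouse forelimb bud. The peaks were chosen by position alone. They are the rows of the deposited TBX5 peak list whose summit lay on chromosome 2 from 37800000 to 38600000 (Lhx2, near 38.2 Mb), on chromosome 1 from 140200000 to 141300000 (Lhx9, near 140.7 Mb) or on chromosome 2 from 33000000 to 33900000 (Lmx1b, from about 33.42 to 33.50 Mb). These limits and gene positions are approximate ones on the build mm9. The windows held 52 of the 11224 peaks in the list, with 11 in the Lhx2 window, 21 in the Lhx9 window and 20 in the Lmx1b window.

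TBX5 was profiled by ChIP-seq, which sequences the DNA that an antibody pulls down together with the protein it recognises. Forelimb buds came from wild-type embryos of the outbred ICR stock at embryonic day 10.5. Of the 4 libraries, 2 were precipitated with a polyclonal antibody to TBX5 and 2 were sheared input chromatin that was not precipitated, all from the same tissue, stage and genotype. The list gives 1 set of peaks for the TBX5 group, no value for a single replicate or for input, and no read depth, so no result below has a replicate SD or a test. How many embryos entered each library is not given in the sources used here, and no sorting of cells is named, so a peak cannot be placed in mesenchyme or ectoderm, or in dorsal or ventral cells.

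LIM-homeodomain proteins bind DNA through a homeodomain and bind partner proteins, among them the cofactor Ldb1, through a pair of zinc-binding LIM domains. In the limb bud, Lhx2 and Lhx9 are expressed in the mesenchyme and act redundantly in the response to FGF signals from the apical ectodermal ridge that sustains outgrowth and Shh expression. Lmx1b is induced in the dorsal mesenchyme by Wnt7a from the dorsal ectoderm and specifies dorsal identity, and its loss turns the dorsal side of the limb ventral. TBX5 is required for the forelimb bud to start growing, in part by activating Fgf10.

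The proximal promoters of the 3 genes are shown here because T-box proteins recognise the letters AGGTGT, often as AGGTGTGA, and these were searched for on both strands. Each sequence is the 250 bases before the transcription start in RefSeq on GRCm38.p6, read 5′ to 3′ on the strand of the gene, and capitals would mark a match. Lhx2 (plus strand) is at chr2:38339031-38339280, Lhx9 (minus strand) at chr1:138842445-138842694 and Lmx1b (minus strand) at chr2:33641099-33641348.
Lhx2: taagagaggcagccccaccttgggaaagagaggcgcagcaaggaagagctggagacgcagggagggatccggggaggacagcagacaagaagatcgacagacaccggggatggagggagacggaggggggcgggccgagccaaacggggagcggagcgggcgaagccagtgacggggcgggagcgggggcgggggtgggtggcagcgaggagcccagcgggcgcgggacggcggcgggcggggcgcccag
Lhx9: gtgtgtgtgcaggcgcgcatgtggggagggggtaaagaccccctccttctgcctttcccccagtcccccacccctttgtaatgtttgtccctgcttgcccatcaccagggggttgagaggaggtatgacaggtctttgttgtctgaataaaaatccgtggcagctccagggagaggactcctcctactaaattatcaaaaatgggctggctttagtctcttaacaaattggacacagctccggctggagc
Lmx1b: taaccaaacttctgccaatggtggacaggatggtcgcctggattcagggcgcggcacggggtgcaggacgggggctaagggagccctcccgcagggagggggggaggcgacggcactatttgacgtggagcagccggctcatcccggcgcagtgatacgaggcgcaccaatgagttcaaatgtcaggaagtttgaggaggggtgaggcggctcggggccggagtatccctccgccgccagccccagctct

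Neither form of the letters was found in these promoters, searched with the 50 bases after the start included, or in that of a second Lhx2 start. AGGTGT was present in 13.7% of the 32851 RefSeq promoters of the same length, and AGGTGTGA, which contains it, in 1.28%. The Lhx2 promoter was rich in G and C (74.7%), followed by Lmx1b (65.7%) and Lhx9 (55.3%), against a median of 52.7% over all promoters. DNA under the peaks was not analysed here, since no genome sequence was used.

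The build of the list decides which gene a peak is near. The labels name mm10, the GRCm38 assembly. On chromosome 1, that of Lhx9, 9 summits lay past the end of the last RefSeq gene of GRCm38.p6, by up to 1.41 Mb. This goes against that build for chromosome 1. The limit used was the end of the last gene and not the end of the chromosome, whose length was not used here. No summit on chromosome 2 lay beyond its last gene, so that chromosome alone does not tell the builds apart. A single list would be on a single build, so the result on chromosome 1 also bears on the Lhx2 and Lmx1b windows. Readings on GRCm38.p6 are given below only because the labels name that build. Distances to a gene below are from the approximate mm9 positions and are meaningful to about 0.1 Mb. The neighbouring protein-coding genes in the RefSeq order are Dennd1a and Nek6 for Lhx2, Nek7 and 2310009B15Rik for Lhx9, and Zbtb43 and Mvb12b for Lmx1b. On the higher side these are followed by Psmb7, Dennd1b and Pbx3. A peak in a window may belong to any of these or to a gene farther away.

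**Figure D1:**
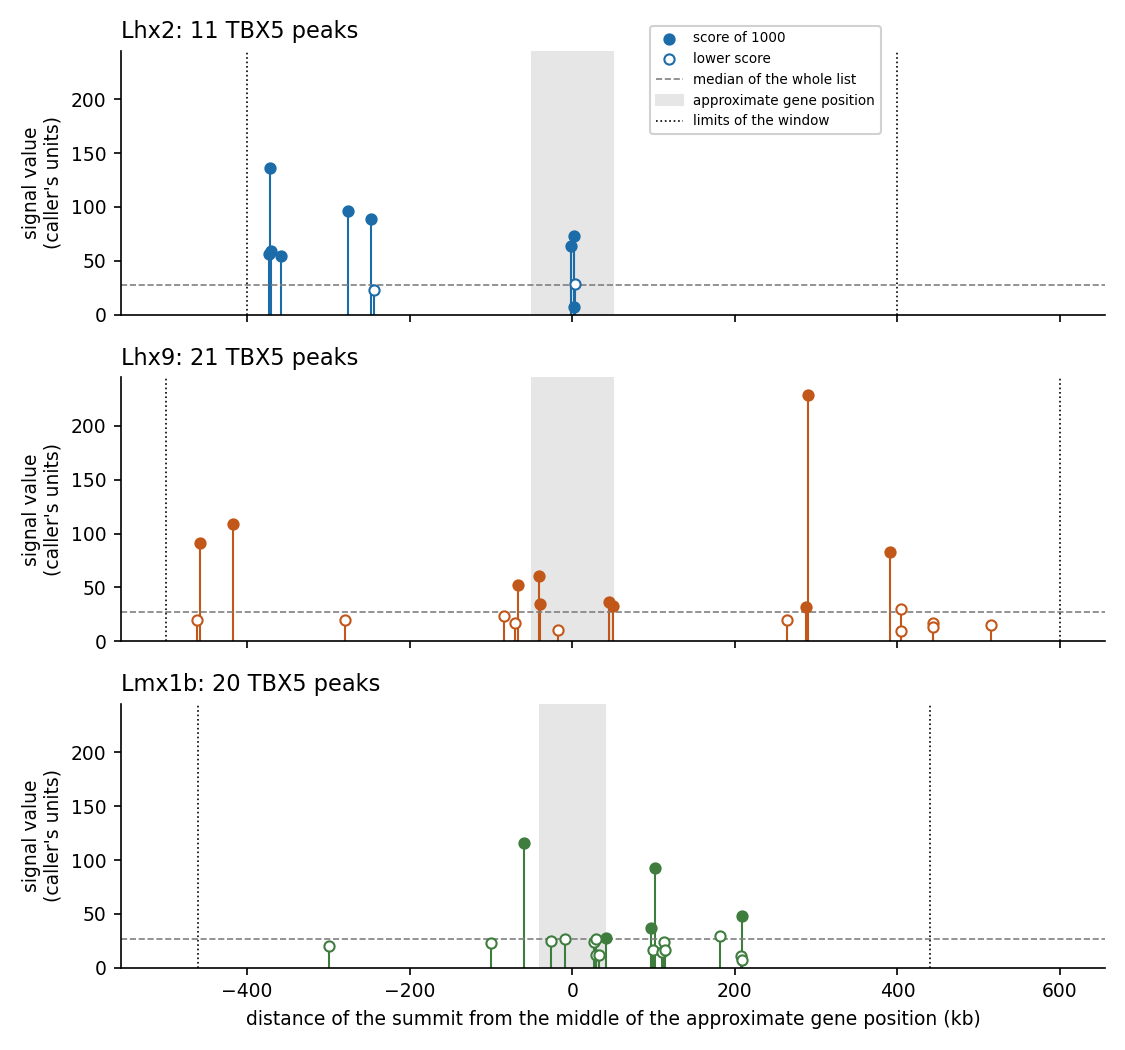
Signal value of each TBX5 peak (vertical axis, in the units of the authors' peak caller) against the distance of its summit from the middle of the approximate gene position (horizontal axis, kb) in the 3 windows, with filled points for the highest score and open points for lower scores. The strong Lhx2 peaks stand in separate groups at and below the approximate mm9 position, the strongest peak of all (228) lies above the Lhx9 position, and the peaks inside the approximate mm9 position of Lmx1b are all under the median of the list.

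All 3 windows held more peaks than most stretches of the same length. The Lhx2 window held 11 peaks in 0.8 Mb, or 13.8 per Mb, where the median of 3270 adjoining tiles of 0.8 Mb across the chromosomes was 2 peaks and 6.33% of the tiles held as many. The Lhx9 window held 21 peaks in 1.1 Mb, or 19.1 per Mb, against a median of 3 in 2376 tiles, of which 2.23% held as many. The Lmx1b window held 20 peaks in 0.9 Mb, or 22.2 per Mb, against a median of 2 in 2905 tiles, of which 1.62% held as many. The irreproducible discovery rate is a measure of how well peak ranks match between replicates. Peaks with a rate of 0.01 or below numbered 12.5 per Mb in the Lhx2 window, 11.1 for Lmx1b and 10.9 for Lhx9. Their number was 10 for Lhx2, 10 for Lmx1b and 12 for Lhx9. The order of Lhx2 and Lmx1b by density at this limit thus comes from the window lengths alone. The tiles are a description, and the windows were proposed with the list known. The fullest tiles of these lengths held 45, 55 and 46 peaks, so none of the 3 windows was at the top of the list.

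**Figure D2:**
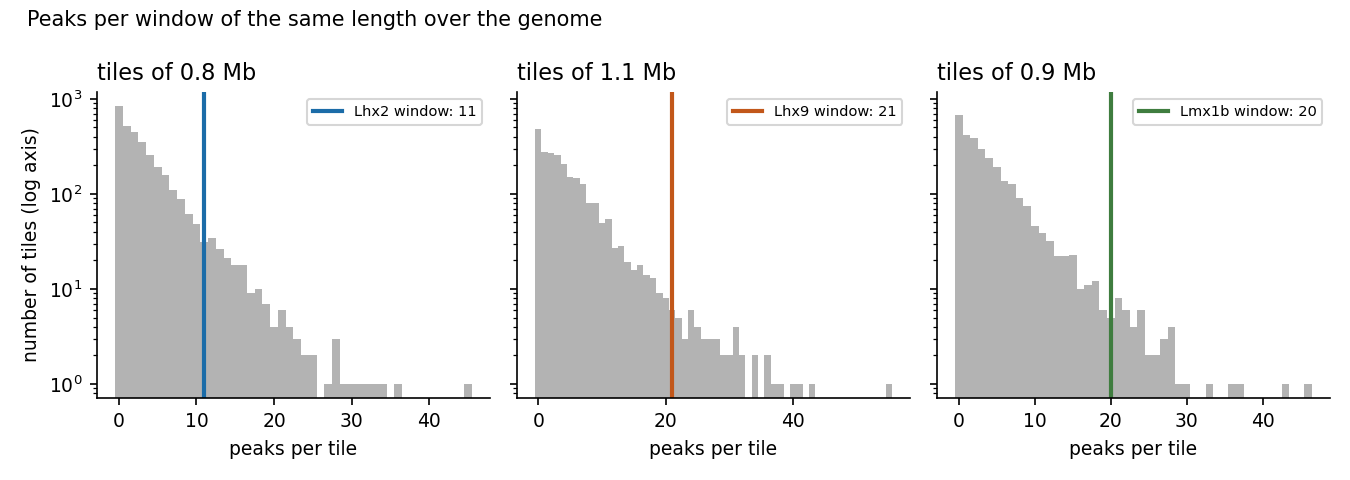
Number of tiles (log axis) by the number of TBX5 peaks they hold, for tiles of 0.8, 1.1 and 0.9 Mb, the lengths of the Lhx2, Lhx9 and Lmx1b windows. The coloured lines at 11, 21 and 20 peaks mark the windows, which lie in the upper tail of each distribution but below its end.

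The windows differed in how strong and how reproducible their peaks were. The signal value, which the authors' peak caller assigned and whose scale is not stated, had a median of 58.6 in the Lhx2 window, 29.7 in the Lhx9 window and 24.1 in the Lmx1b window, against 27.2 over all peaks. Of the Lhx2 peaks, 9 of 11 were above the list's median, compared with 11 of 21 for Lhx9 and 6 of 20 for Lmx1b. The Lhx2 median thus was 2.16 times that of the list, while Lhx9 and Lmx1b were near it at 1.09 and 0.888 times. With limits drawn around the GRCm38.p6 positions in place of the mm9 ones, the Lhx2 median was 27.3 over 8 peaks, since the 6 peaks farthest below the gene, from 54.0 to 136, then fell outside.

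The irreproducible discovery rate (IDR) compares peak ranks between replicates, and the list gives it as a score of at most 1000, which stands for an IDR of 0.00391 or below. The full score was reached by 9 of 11 Lhx2 peaks (81.8%), 10 of 21 Lhx9 peaks (47.6%) and 5 of 20 Lmx1b peaks (25%), where 45.4% of all peaks in the list reached it. The Lhx9 share was thus near that of the list, Lhx2 was above it and Lmx1b below it. An IDR of 0.01 or below was held by 10 Lhx2 peaks (90.9%), 12 Lhx9 peaks (57.1%) and 10 Lmx1b peaks (50.0%), against 60.0% of the list. Among the 10% of peaks with the highest signal were 5 Lhx2 peaks (45.5%), 4 Lhx9 peaks (19.05%) and 2 Lmx1b peaks (10%). For Lmx1b this equals the share in the list, while the window held more peaks than most tiles. With the GRCm38.p6 limits 3 of 8 Lhx2 peaks (37.5%) had the full score and 25% were in the highest 10% of signal.

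**Figure D3:**
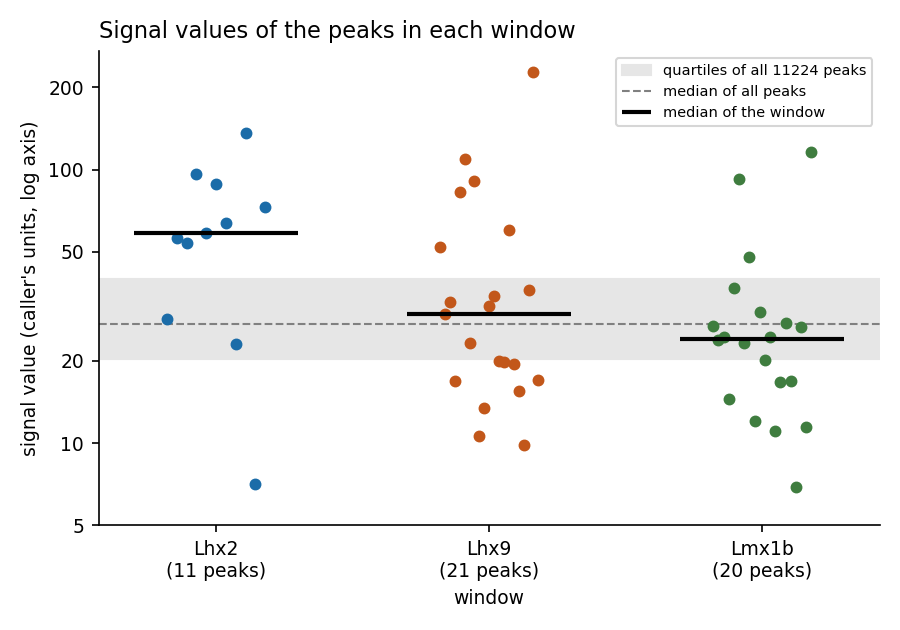
Signal values (log axis, units of the authors' peak caller) of the single peaks in the Lhx2, Lhx9 and Lmx1b windows, with each window's median as a black bar over the median (dashed) and quartiles (grey) of all 11224 peaks. Most Lhx2 peaks lie above the upper quartile of the list, while Lhx9 and Lmx1b peaks spread over and below the grey band with a few strong ones.

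**Figure D4:**
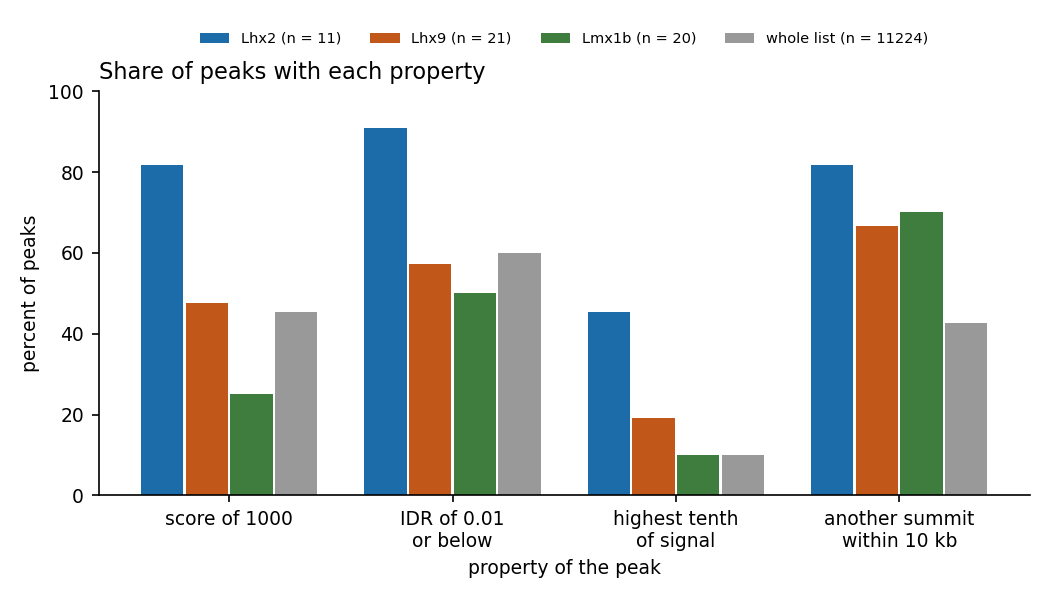
Percentage of peaks in the Lhx2, Lhx9 and Lmx1b windows and in the whole list (bars from 0) that had a score of 1000, an IDR of 0.01 or below, a signal in the highest 10% of the list, or another summit within 10 kb. For the first 3 properties Lhx2 is above the list and Lmx1b is not, and for neighbouring summits all 3 windows are above it.

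At Lhx2, the gene that shares limb functions with Lhx9, the peaks fell into groups at the approximate mm9 gene position and far below it. A group of 4 summits lay within 5 kb of one another at that position, but read on GRCm38.p6 the nearest of them would lie 135.7 kb from a Lhx2 start. Its members had signal values of 63.8 (summit 38198934), 72.7 (38201708), 7.05 (38201923) and 28.5 (38203615). The first pair were narrow, strong peaks with the full score of 1000, at 184 and 166 bp, and the last had a score of 913. The peak of 7.05 lay 215 bp from the stronger summit of 72.7 and overlapped it. Its q-value was 0.499, yet its score was also 1000.

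The other 7 Lhx2 peaks lay 0.2 to 0.4 Mb below the gene position, on the upstream side of the plus-strand gene and towards its neighbour Dennd1a. The farthest group had 3 summits within 2.40 kb, with signal values of 56.4, 136 and 58.6, and all had a score of 1000. The middle one, at chr2:37828079-37828372 with its summit at 37828224, was the strongest peak of the window. It ranked 106 of 11224 in the list and was 5.02 times the list's median. A single peak of 54.0 followed at 37841444, and another of 96.5 at 37923805, which was the second strongest of the window. The last pair had values of 88.5 at 37952024 and 23.1 at 37955925. Only this weaker peak, with a score of 663, had an IDR above 0.01 in the window. No peak was listed over the next 243 kb up to the gene position, or above summit 38203615 inside the window.

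The limits of the Lhx2 window matter for the count. The next peaks outside it, at 37721817 (signal 22.2, score 707) and 38637835 (18.3, score 620), were weaker than the median of the list. With each limit moved 100 kb inwards the farthest group and the peak at 37841444 were lost, and 7 peaks remained.

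At Lhx9, the 4 strongest peaks lay over 100 kb from the approximate mm9 gene position. With both sides pooled, the median signal was 33.8 over the 8 peaks within 100 kb. It was 25.9 over the 4 peaks from 100 to 300 kb and 19.4 over the 9 peaks beyond. The sides differed, with a median of 55.5 over the 4 peaks more than 100 kb below the position. Over the 9 peaks more than 100 kb above it, the median was 19.9. These bins hold few peaks, and their 100 kb limit is no finer than the gene position itself. Within 100 kb of the gene position were 8 peaks with signal values from 10.6 to 60.2, of which 5 had a score of 1000. Below the position these were 23.3 (140616099), 16.9 (140630093), 52.1 (140633120), 60.2 (140659617), 34.6 (140660412) and 10.6 (140682098), and above it 36.3 (140744576) and 32.9 (140750663). The peak at 140682098 was the weakest of the 8, with a q-value of 0.0577 and a score of 935. The strongest of the 8, at 60.2, was weaker than 4 other peaks of the window.

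The other 13 Lhx9 peaks included the 4 strongest. The strongest, at chr1:140989386-140989746 with its summit at 140989578 and a signal of 228, lay 0.3 Mb above the gene position, on the upstream side of this minus-strand gene and on the side of Dennd1b. It ranked 8 in the whole list, was 8.41 times the list's median and was 2.10 times the next peak of the window. A second summit of 31.8 lay 1.70 kb below it, also with a score of 1000. The next in strength were 109 at 140281964 and 91.2 at 140241722, both about 0.4 to 0.5 Mb below the gene position on the side of Nek7, and 82.5 at 141090723, about 0.4 Mb above it. All 4 of these had a score of 1000 and ranked 8, 211, 377 and 512 in the list. No peak was listed in the 195 kb below those at the gene, which end at a weak peak of 19.8 at 140420789, or in the 213 kb above them.

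The remaining 8 Lhx9 peaks were weaker, and all had a score under 1000. They had signal values of 19.4 (140238571), 19.8 (140420789), 19.9 (140964035), 29.7 (141104578), 9.83 (141104793), 16.9 (141143630), 13.4 (141143896) and 15.4 (141215636). Of these, only 29.7 exceeded the median of the list. They included 2 pairs of summits 215 and 266 bp apart whose intervals overlap. The peak just above the upper limit, at 141300069, was 0.068 kb outside it and had a signal of 30.1 and a score of 1000, and the peak below the lower limit, at 140179266, had 21.1 and 623. No chain of 3 or more summits, each within 10 kb of the next, was present in the Lhx9 window, where the 21 peaks formed 14 groups.

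At Lmx1b, the dorsal determinant, many weak peaks and a few strong ones were listed. Most stood in chains of close summits, while the strongest peak was a single summit. Which of the peaks lay inside the gene depends on the build. Inside the approximate mm9 position from 33.42 to 33.50 Mb were 6 peaks, with signal values of 24.5 (33433241), 26.8 (33450487), 24.4 (33487176), 26.6 (33489181), 11.5 (33489412) and 12.1 (33492383). None of the 6 exceeded the list's median of 27.2 or reached the full score, and their scores ran from 610 to 991. The last 4 formed a chain with the peak at 33501788, which had a signal of 27.6 and a score of 1000. In all the chain held 5 summits over 14.6 kb. Read on GRCm38.p6, 4 other peaks would lie inside the gene, with signal values from 14.5 to 92.7, of which 1 exceeds the list's median.

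The strongest Lmx1b peak, at chr2:33399854-33400120 with its summit at 33399991, had a signal of 116 and ranked 172 in the list. It lay within 0.1 Mb of the approximate mm9 position, and 161 kb from the gene if read on GRCm38.p6. Also within 0.1 Mb of the mm9 position, 6 summits formed a chain over 17.4 kb with signal values of 37.0 (33557025), 16.9 (33558939), 92.7 (33561660), 14.5 (33570665), 23.8 (33572880) and 16.7 (33574425). The peak of 92.7 was the second strongest of the window and ranked 358 in the list. It and the peak of 37.0 had a score of 1000, while the other 4 had scores from 587 to 873 and values below the list's median.

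Chains of this size were uncommon in the list. Of the 8435 chains and single summits in the list, 63 (0.747%) held 5 or more summits, and the Lmx1b window contained 2 of these. Of 27 chains with 6 or more (0.320%), 1 was in the Lmx1b window. A further group of 3 summits stood about 0.2 Mb above the gene position, with values of 11.1 (33668057), 6.91 (33668319) and 48.1 (33669166). Only the last had a score of 1000, and the other pair overlapped each other and had a score of 544, near the lowest in the list.

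The remaining peaks of the Lmx1b window were 20.1 (33160655) and 23.2 (33360233) below the position and 30.02 (33641290, score 884) above it. The placement of the last, as of the others in this window, depends on the build. On the mm9 positions it lies about 0.1 Mb from Lmx1b. Read on the GRCm38 assembly of the labels, the same number lies 0.192 kb from the Lmx1b transcription start, inside the printed Lmx1b promoter, and it would be the only one of the 52 summits within a RefSeq promoter (0.445% of all summits in the list would be, 50 of 11224). The peaks nearest the window on the outside, at 32903899 (29.0, score 974) and 33962566 (34.5, score 1000), lay 96.1 and 62.6 kb from the limits.

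In all 3 windows the share of peaks with another summit within 10 kb was above that of the list. Another summit lay that close to 9 Lhx2 peaks (81.8%), 14 Lhx9 peaks (66.7%) and 14 Lmx1b peaks (70.0%), against 42.7% of the list. With summits within 1000 bp joined, the shares were 77.8% for Lhx2, 44.4% for Lhx9 and 58.8% for Lmx1b. Among peaks with an IDR of 0.01 or below they were 70%, 50% and 40%. Shares of the whole list at these settings are not given here. The median gap between neighbouring summits was 3.34 kb for Lhx2, 22.8 kb for Lhx9 and 9.01 kb for Lmx1b. The part of peak density in these shares was not tested. In 5 pairs the summits were 215 to 266 bp apart, and the weaker of each pair had 0.0970 to 0.791 times the signal of the stronger.

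Most of the strongest peaks were narrower than the rest. The common width of 416 bp was found in 4 Lhx2 peaks (36.4%), 17 Lhx9 peaks (81.0%) and 17 Lmx1b peaks (85.0%), against 84.3% of the list, and the narrowest peak was 125 bp, at 33557025 near Lmx1b. The narrower peaks were the 4 strongest of Lhx9, those of 116, 92.7 and 37.0 at Lmx1b, and the 7 strongest of Lhx2. The Lmx1b peak of 48.1 was stronger than that of 37.0 but had the common width. A q-value above 0.05 was listed for 1 Lhx2 peak, 2 Lhx9 peaks and 1 Lmx1b peak (9.09%, 9.52% and 5%), against 6.07% of the list. Of these 4 peaks, 3 were the weaker member of a close pair and the other was the peak of 10.6 in the Lhx9 window.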

How the data were processed

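The sources were 1 peak list for the 2 TBX5 ChIP libraries and the labels of those and the 2 input libraries. Reads were 75 bases long and single-end, per the labels' protocols. The submitters' processing notes name FastQC and the build mm10, and the aligner, peak caller and filters are not given in the sources used here. The list follows the 10-column narrowPeak layout. Its deposited signal value is that of the authors' peak caller, on a scale that is not stated. Its deposited score runs from 540 to 1000, the IDR scaled as -125 × log2(IDR), where 540 stands for 0.05. The deposited −log10 q-value comes from the authors' peak caller. The deposited p-value column holds only -1, for not given.

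Starts and summits were converted to 1-based positions. Windows, shares, chains (10000 bp), joins and tiles were computed with pandas 2.3.3, NumPy 2.4.6, SciPy 1.17.1 and matplotlib 3.10.9 under Python 3.11.15, and checked on simulated lists. RefSeq tables of GRCm38.p6 gave promoters and neighbours. In each window the 5 strongest peaks, the one nearest the gene, the outermost ones, the next outside and whole chains were to be named, and the rest were added to account for all 52. The genes, windows and settings were chosen with earlier results of these data known. Peaks at other LIM-homeodomain and limb signalling genes were not counted, since no annotation of the list's own build was used, and no test against input was possible with this list.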

Additional observations from a re-analysis of the deposited data

How the results depend on the processing

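Over 24 results, 198 alternative values were computed, of which 165 were counted as staying and 33 were not. Numbers of peaks had to stay within 1.5 times the main count. The other results had to stay inside the 95% binomial or Poisson interval of the main value. These intervals treat clustered peaks as independent and are wide for few peaks, so a value that stayed can still differ much. With windows placed on GRCm38.p6, the Lhx2 median of 27.3 in place of 58.6 was counted as staying. So was the Lhx2 share in the highest 10% of signal, at 25% in place of 45.5%. With summits within 1000 bp joined, the Lhx9 share with a neighbouring summit was 44.4% in place of 66.7%, and also counted as staying. Joining overlapping intervals, joining summits within 1000 bp, leaving out peaks near a stronger summit, a q-value of 0.05 or below, limits 100 kb outwards and shifted tiles moved none. At an IDR of 0.01 or below, the number of peaks was 12 for Lhx9 and 10 for Lmx1b, the share with a score of 1000 was 83.3% and 50.0%, and the Lmx1b median signal was 28.8. In the upper 50% by signal value, the number was 11 for Lhx9 and 6 for Lmx1b, the share with a score of 1000 was 90.9% and 83.3%, the Lmx1b median was 42.5 and its share in the highest 10% of signal was 33.3%. These settings remove weak or low-scoring peaks by construction. Of the 33, 19 concern peaks per Mb, the share with an IDR of 0.01 or below or the share with a neighbouring summit. With limits 100 kb inwards Lhx2 had 7 peaks. With windows placed on GRCm38.p6, chosen after the data were seen, Lhx9 had 7 peaks and the Lhx2 share with a score of 1000 was 37.5%. The order of the 3 genes by median signal (Lhx2, Lhx9, Lmx1b) was kept in 8 of 9 alternatives, and the order by peaks per Mb (Lmx1b, Lhx9, Lhx2) in 6 of 9. Lhx2 came first by peaks per Mb at an IDR of 0.01 or below and in the upper 50% by signal (11.25 against 6.67 for Lmx1b). No paired analysis was possible because replicates were merged into 1 list, and for the same reason neither replicate could be left out in turn. Without read depth, weak sites that were missed cannot be told from sites without binding.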

Other observations

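The windows were also placed around the positions of the genes on GRCm38.p6, the build that the labels name, with their length and offset kept. The Lmx1b window then held 23 peaks, which include all 20 of the original ones, with a median signal of 24.4. The Lhx2 window held 8 peaks, of which 5 were shared with the original window, and the summit nearest a Lhx2 start was 135.7 kb away with a signal of 28.5. For Lhx9 the window moved by 1.86 Mb and held 7 peaks, none of them shared, with a median of 21.0 and a highest signal of 65.0, and the nearest summit was 168.5 kb from the start with a signal of 19.8. On that reading 25.04% of tiles of the same length held as many peaks as the Lhx9 window, in place of 2.23%.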
